A study of Mus musculus with 2 samples.

Results

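The antioxidant, glutathione and metallothionein genes were taken as every gene whose name on the array was that of a glutathione S-transferase (alpha, mu, pi, theta, omega, zeta or kappa), a microsomal glutathione transferase, a glutathione peroxidase, a peroxiredoxin, a thioredoxin or thioredoxin reductase, Txnip, a superoxide dismutase, catalase, an enzyme of glutathione synthesis or recycling, Nqo1, Srxn1, Mt1 or Mt2. This gave 53 genes of the 27962 gene names on the array, read by 78 of 41174 gene probes and 114 of 43379 gene spots. The rule uses gene names only. Of these genes, 52 had a probe accession found in the RefSeq gene table of GRCm38.p6, and all 53 symbols stood in it.

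Two-colour Agilent arrays compared RNA of PKGI knockout mice (KO) with RNA of wild type littermates (WT), both of the C57BL/6N background. PKGI is a kinase that cGMP activates, and its gene is Prkg1. One array held brown adipose tissue (BAT) of an untreated KO mouse, labelled with Cy5, and of an untreated WT littermate, labelled with Cy3. The other held brown adipocytes grown in culture from preadipocytes, those of a KO mouse in Cy3 and those of a WT littermate in Cy5. How PKGI was deleted, and the age and sex of the mice, are not given in the labels. With 1 array per comparison and no repeat with the dyes exchanged, no test was possible, and dye and genotype cannot be told apart gene by gene. Every value below describes these RNA samples only.

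Cells clear superoxide and peroxides in steps. Superoxide dismutases turn superoxide into hydrogen peroxide, which catalase splits by itself. The glutathione peroxidases and the peroxiredoxins also remove peroxides, drawing on glutathione or thioredoxin that reductases restore with NADPH. Glutathione transferases couple glutathione to reactive lipids and foreign compounds, and several of them respond to the transcription factor NRF2 through antioxidant response elements. Metallothioneins are small cysteine-rich proteins that bind zinc and copper, and the zinc sensor MTF1 induces them through metal response elements. Brown fat burns fatty acids at high rates in mitochondria and peroxisomes, both of which produce these oxidants.

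The promoter of Mt2 is shown because Mt2 had the largest difference of the group in the tissue. RefSeq's 250 bases upstream of its annotated start, GRCm38.p6, chr8:94172368-94172617 on the plus strand, read as follows, with the metal response core in capitals.
Mt2: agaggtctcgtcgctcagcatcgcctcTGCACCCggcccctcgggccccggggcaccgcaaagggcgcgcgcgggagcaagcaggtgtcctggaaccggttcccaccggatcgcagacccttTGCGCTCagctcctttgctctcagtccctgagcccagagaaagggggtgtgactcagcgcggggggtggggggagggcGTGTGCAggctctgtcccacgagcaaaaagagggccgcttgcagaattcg
The core searched was TGCACNC or TGCGCNC on both strands, where N is any base. The window held 3 matches, 2 as printed and 1 on the other strand. At least 1 match stood upstream of 14 of the 47 member genes with a promoter entry (29.8%) and of 21.3% of 27025 genes, and 2 or more stood upstream of 6.38% and 5.19%.

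A second set is shown because the same antioxidant response core stood before genes with opposite differences in the cultured cells, Gstm5 and Mgst1. The core searched was TGACNNNGC on both strands, and it is in capitals in 30 bases of each window, all from RefSeq, GRCm38.p6.
Gclm, chr3:122245412-122245441: cgctcccgggcGCACCGTCAactctcacga
Gsta3, chr1:21240453-21240482: caactcaggcaTGACATTGCatttttcttc
Gstm5, chr3:107895801-107895830: gcaccgcccacTGACCACGCggagggcggg
Mgst1, chr6:138140460-138140489: ggcggggcttgGCACGGTCAggaggcgggg
Mt2, chr8:94172528-94172557: gaaagggggtgTGACTCAGCgcggggggtg
Prdx1, chr4:116685455-116685484: ccagggaaagcGCTGAGTCAtcccccgtag
Sod1, chr16:90220695-90220724: tgccaaggtggGCGTGGTCAgactcaggcc
All 7 genes lie on the plus strand, and the match in Gclm, Mgst1, Prdx1 and Sod1 is on the other strand. The match in Gclm overlapped a metal response core. These 7 genes were 14.9% of the 47 members with an entry, beside 10.1% of all 27025 promoters. A match is a run of letters and was not tested for binding.

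Each array held 45018 spots. The share of gene spots well above background was 74.1% for KO and 63.1% for WT BAT, and 68.1% for KO and 70.1% for WT adipocytes. The log2 ratios of repeated spots had a pooled SD of 0.0968 in BAT and 0.0895 in the adipocytes, which covers spotting and scanning only. The 2 Prkg1 probes measured in both channels had log2 ratios of -1.29 and -1.22 in BAT and of -0.94 and -2.31 in the adipocytes, and whether they lie in the deleted part is not known. The summed level of 12 skeletal muscle markers was 41429 in KO and 266730 in WT BAT, and 12 of 12 were at least 2-fold lower. In the adipocytes, 13 of 13 mature adipocyte markers were at least 2-fold lower (summed level 19998 in KO and 293830 in WT), as were 6 of 9 macrophage markers (38921 in KO and 187423 in WT), while 4 of 9 smooth muscle and fibroblast markers were at least 2-fold higher (82505 in KO and 19083 in WT). The part of these shifts in the results below was not tested. All 8 brown adipocyte markers were measured on both arrays, and Ucp1, which defines brown fat, had a level of 15.62 in KO and 17.46 in WT BAT, and of 7.20 in KO and 10.99 in WT adipocytes. Of these markers, 1 was higher (Cidea, 2.01-fold) and 4 were lower in KO BAT, and 0 were higher and 5 were lower in KO adipocytes. In such bulk RNA, fewer cells of a type and less RNA per cell cannot be told apart.

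In BAT the group was close to level between the genotypes with the loess values, with Mt2 and Gstt2 as the exceptions. Levels below are normalised log2 intensities, and ratios are log2 of KO over WT, so that 1 is a 2-fold difference. Genes are called higher or lower only from a 2-fold difference. Of the 50 members measured, 2 were higher (4%, beside 0.967% of 20571 genes) and 0 were lower (beside 2.47%). The median log2 ratio of the 50 was 0.04 (quartiles -0.23 and 0.28), against 0.02 for all genes. A difference of less than 1.5-fold was seen for 42 of them (84.0%, beside 88.5% of all genes), with 5 at least 1.5-fold higher (beside 4.24%) and 3 lower (beside 7.3%). When the array was centred on its median instead of by loess, 7 of the 50 were higher, beside 943 of 20571 genes. Their median was then 0.48, against 0.21 for all genes. With the scanner software's own ratios 3 were higher, beside 2356 genes, and 1 was lower, beside 1375. Gpx5, Gpx6 and Gsta2 were not well above background in either channel.

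In the cultured adipocytes more members moved, in both directions. Of 49 measured, 4 were higher (8.16%, beside 2.15% of 19478 genes) and 5 were lower (10.2%, beside 3.81%). The median was 0.02, with quartiles of -0.33 and 0.42, against -0.02 for all genes. Under 1.5-fold were 34 members (69.4%, beside 83.3% of all genes), with 7 at least 1.5-fold higher (beside 7.64%) and 8 lower (beside 9.08%). The higher genes were Gpx3, Gstm5, Gstt1 and Gpx7, and the lower ones were Cat, Mgst1, Sod2, Gsto1 and Gstm3. When the array was centred on its median instead of by loess, none of the 4 higher genes reached 2-fold. Gpx5, Gpx6, Gsta1 and Gsta2 were not well above background in either channel.

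**Figure D1:**
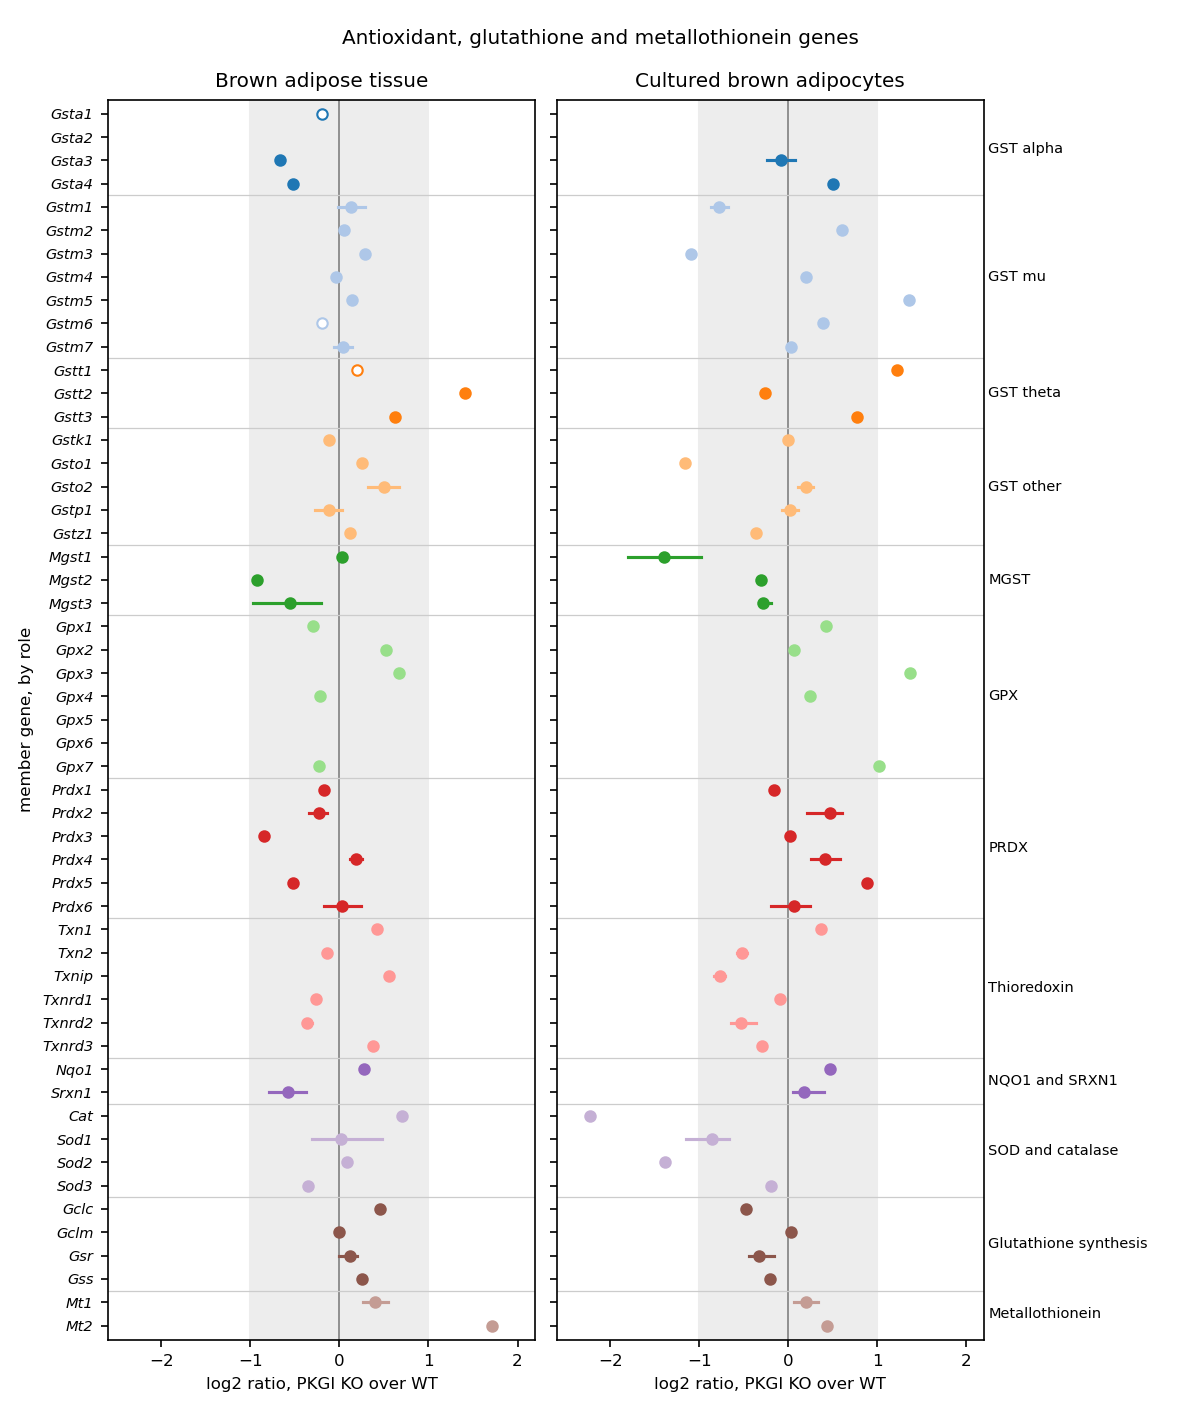
The log2 ratio of KO over WT (horizontal axis) for each member gene, grouped by role, in brown adipose tissue (left) and cultured brown adipocytes (right). Points are gene means, lines span the lowest and highest probe, open points mark genes not well above background in WT, and the grey band covers differences under 2-fold. In BAT only Mt2 and Gstt2 lie outside the band, while 9 genes do in the adipocytes.

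Of the superoxide dismutases and catalase, Cat and Sod2 were lower in the cultured KO cells. In BAT none reached 2-fold with the loess values, but Cat did with median centring (1.45). Cat, the peroxisomal enzyme that splits hydrogen peroxide, had a level of 11.72 in KO and 13.95 in WT adipocytes and was 4.69-fold lower in KO. In BAT its level was 15.59 in KO and 14.88 in WT, a log2 ratio of 0.71. Cat was therefore on opposite sides of 0 in the tissue and the culture.

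Sod2, the mitochondrial manganese enzyme, had a level of 13.72 in KO and 15.10 in WT adipocytes and was 2.61-fold lower in KO. In BAT it was 16.81 in KO and 16.72 in WT, a log2 ratio of 0.09 that turned negative with the scanner software's own ratios, with the deposited values and with outlier spots kept. Sod1, the cytosolic copper and zinc enzyme, is read by 3 probes, with log2 ratios between -1.15 and -0.66 in the adipocytes and between -0.31 and 0.48 in BAT. Its mean of -0.85 in the adipocytes did not reach 2-fold, but its brightest probe did (-1.15), as did the mean with median centring (-1.23). The BAT probes lay on both sides of 0, with the brightest at 0.48. Sod3, the secreted enzyme, had ratios of -0.35 in BAT and -0.19 in the adipocytes. All 4 genes were below 0 in the adipocytes under each of the 8 other processing settings.

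Among the glutathione peroxidases, Gpx3 and Gpx7 were higher in the cultured KO cells. Gpx3, the plasma form, had a level of 11.11 in KO and 9.74 in WT adipocytes and was 2.59-fold higher in KO. In BAT it was 14.64 in KO and 13.97 in WT, a log2 ratio of 0.67. With the loess values Gpx3 was thus above 0 in both, and past 2-fold in the culture only. With median centring it had 1.35 in BAT and 0.95 in the adipocytes, past 2-fold in the tissue only.

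Gpx7, the form of the endoplasmic reticulum, had a level of 13.19 in KO and 12.16 in WT adipocytes and was 2.04-fold higher in KO, just past the threshold, while its log2 ratio in BAT was -0.23. Gpx1, the common cytosolic enzyme, had ratios of -0.29 in BAT and 0.43 in the adipocytes. Gpx4, which protects membranes from lipid peroxides, had -0.22 in BAT and 0.24 in the adipocytes. Neither reached 1.5-fold, and with median centring all 4 of these ratios changed sign. Gpx2, best known from the gut, had ratios of 0.52 in BAT and 0.06 in the adipocytes. All 5 measured peroxidases were above 0 in the adipocytes, but only 2 were with median centring.

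No peroxiredoxin reached 2-fold. Prdx3, the mitochondrial form, had a level of 13.60 in KO and 14.44 in WT BAT, a log2 ratio of -0.85, and 12.75 in KO and 12.73 in WT adipocytes, a ratio of 0.02. Prdx5, found in mitochondria and peroxisomes, had 13.74 in KO and 14.26 in WT BAT (ratio -0.53), and 12.69 in KO and 11.80 in WT adipocytes (ratio 0.89). Both were below 0 in the tissue only, but with median centring the BAT ratio of Prdx5 turned positive and the adipocyte ratio of Prdx3 negative.

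Prdx4, the form of the endoplasmic reticulum, had ratios of 0.19 in BAT and 0.42 in the adipocytes, and Prdx1, a cytosolic form, had -0.17 in BAT and -0.15 in the adipocytes. Prdx2, named here because one of its probes is spotted repeatedly, had ratios of -0.23 in BAT and 0.47 in the adipocytes over 3 probes. Srxn1, the sulfiredoxin that repairs overoxidised peroxiredoxins, had 3 probes between -0.79 and -0.38 in BAT and between 0.06 and 0.40 in the adipocytes. Its mean levels were 8.30 in KO and 8.87 in WT BAT, and 10.24 in KO and 10.06 in WT adipocytes. The probes of Srxn1 thus lay on 1 side of 0 in each array, and on different sides in the tissue and the culture, although with median centring the adipocyte mean was negative too.

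The thioredoxin system did not reach 2-fold in either comparison with the loess values. With median centring Txn1 (1.08) and Txnip (1.11) did in BAT, and Txnip (-1.19) did in the adipocytes. Txnip, which binds thioredoxin and restrains glucose uptake, had a level of 12.11 in KO and 11.56 in WT BAT (ratio 0.55), and 12.15 in KO and 12.92 in WT adipocytes (ratio -0.77). Txnip was read by 1 kept probe in BAT and by 2 in the adipocytes. Txn1, the cytosolic thioredoxin, had ratios of 0.42 in BAT and 0.37 in the adipocytes, the latter -0.09 with median centring. Txnrd1, its cytosolic reductase, had -0.26 in BAT and -0.09 in the adipocytes, and Txnrd2, the mitochondrial reductase, had -0.36 in BAT and -0.53 in the adipocytes. In the adipocytes 5 of 6 genes of the system were below 0, a count that was 4 with the scanner software's ratios and 6 with median centring.

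Glutathione synthesis and recycling were within 1.5-fold on both arrays with the loess values. With median centring Gclc had 0.98 in BAT and -0.89 in the adipocytes, and Gsr had 0.63 and -0.74, all past 1.5-fold. Gclc, the catalytic subunit of the first and limiting enzyme, had a level of 11.26 in KO and 10.81 in WT BAT (ratio 0.45), and 11.17 in KO and 11.65 in WT adipocytes (ratio -0.48). Gclm, its modifier subunit, had ratios of -0.01 in BAT and 0.03 in the adipocytes, both within the spot SD of 0. Gsr, glutathione reductase, had 0.12 in BAT and -0.33 in the adipocytes. Nqo1, a quinone reductase and a standard NRF2 target, had ratios of 0.27 in BAT and 0.47 in the adipocytes.

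Among the theta class of glutathione transferases, all 3 were above 0 in BAT. Gstt2 had a level of 13.95 in KO and 12.55 in WT BAT and was 2.65-fold higher in KO, while in the adipocytes it had 8.35 in KO and 8.60 in WT, a log2 ratio of -0.26. Gstt1 had 11.05 in KO and 9.83 in WT adipocytes and was 2.33-fold higher in KO. In BAT Gstt1 was not well above background in WT. Its bound with the loess values, 1.15-fold higher in KO, was the same as its ratio, and some other settings gave less. Its BAT ratio was 0.20 with the loess values, 0.01 with outlier spots kept, and past 2-fold with the scanner software's ratios and with the deposited values, so whether it passed 2-fold in the tissue depended on the processing. In RefSeq's gene order Gstt1 and Gstt2 lie on chromosome 10 with 1 coding gene between them.

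The mu class stood apart in the culture from gene to gene. In RefSeq's order on chromosome 3 the 7 mu genes form 1 run with no other coding gene between them. In that order, Gstm5, Gstm7, Gstm6, Gstm3, Gstm2, Gstm1 and Gstm4 had log2 ratios of 1.36, 0.04, 0.39, -1.09, 0.60, -0.77 and 0.20 in the adipocytes. In BAT the ratio farthest from 0 among them was 0.28, of Gstm3, with the loess values. With median centring Gstm3 had 0.87 in BAT, and the median of the 7 was 0.61, with 5 above 0 and 2 below. Neighbours in the cluster therefore had ratios of opposite sign in the culture.

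Gstm5 had a level of 13.25 in KO and 11.89 in WT adipocytes and was 2.57-fold higher in KO. Gstm3 had 13.11 in KO and 14.20 in WT adipocytes and was 2.13-fold lower in KO, and with the authors' deposited values it no longer reached 2-fold. Gstm1, a major liver transferase in mice, had 2 probes at -0.87 and -0.67 in the adipocytes. The mu genes are close in sequence, and how far each probe also binds transcripts of the others was not checked.

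Of the other cytosolic classes, Gsto1, an omega transferase that reduces dehydroascorbate and arsenic compounds, was lower in culture. It had a level of 12.03 in KO and 13.19 in WT adipocytes and was 2.23-fold lower in KO, whereas in BAT it had 14.94 in KO and 14.70 in WT, a ratio of 0.25. Its direct neighbour on chromosome 19, Gsto2, had ratios of 0.50 in BAT and 0.20 in the adipocytes. Gsta4, which conjugates the lipid peroxidation product 4-hydroxynonenal, had a level of 8.97 in KO and 9.49 in WT BAT (ratio -0.52), and 7.42 in KO and 6.91 in WT adipocytes (ratio 0.51). Gsta3 had ratios of -0.66 in BAT and -0.08 in the adipocytes. Gsta1 and Gsta2, Gstp1 and Gstp2, and Prdx6 and Prdx6b are near-identical pairs, so the values of Gsta1, Gsta2, Gstp1 and Prdx6 are uncertain.

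The microsomal transferases, membrane enzymes with transferase and peroxidase activity, were mostly below 0. Mgst1 had a level of 14.30 in KO and 15.69 in WT adipocytes and was 2.62-fold lower in KO, with probes at -1.80 and -0.98. In BAT it had 15.21 in KO and 15.18 in WT, and its ratio of 0.03 turned negative under 4 settings. The 2 probes of Mgst1 gave the same direction in culture but differed in size.

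Mgst2 had a level of 10.71 in KO and 11.64 in WT BAT, a ratio of -0.92 that was -0.45 with outlier spots kept, and it had -0.31 in the adipocytes. Mgst3 had 3 probes between -0.97 and -0.21 in BAT. With the scanner software's ratios its mean was -1.08 and with outlier spots kept -0.08, so its size depended on the processing. All 3 microsomal genes were below 0 in the adipocytes under each setting.

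Mt2 was the member with the largest difference in BAT. It had a level of 14.17 in KO and 12.45 in WT BAT and was 3.28-fold higher in KO. In the adipocytes it had 14.31 in KO and 13.87 in WT, a log2 ratio of 0.44. Across the 8 other settings the BAT ratio of Mt2 lay between 1.67 and 2.33.

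Mt1, its neighbour on chromosome 8, had probes at 0.27 and 0.54 in BAT, and its mean level was 11.58 in KO and 11.17 in WT. In the adipocytes Mt1 had probes at 0.06 and 0.34, a mean of 0.20 that turned negative with median centring. Both metallothioneins were above 0 in both comparisons with the loess values, and Mt2 alone reached 2-fold, in the tissue. Whether the probes of either gene also bind the other's RNA was not checked. Among 11 measured genes of metal handling, 0 reached 2-fold in either array. Of all genes, 0.967% were higher and 2.47% lower in BAT, and 2.15% and 3.81% in the adipocytes. Mtf1 itself had ratios of -0.15 in BAT and -0.13 in the adipocytes, and Slc30a1, the zinc exporter that is also an MTF1 target, had 0.10 in BAT and -0.52 in the adipocytes. Mtf1 and Slc30a1 were picked for their role after their values were seen.

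**Figure D2:**
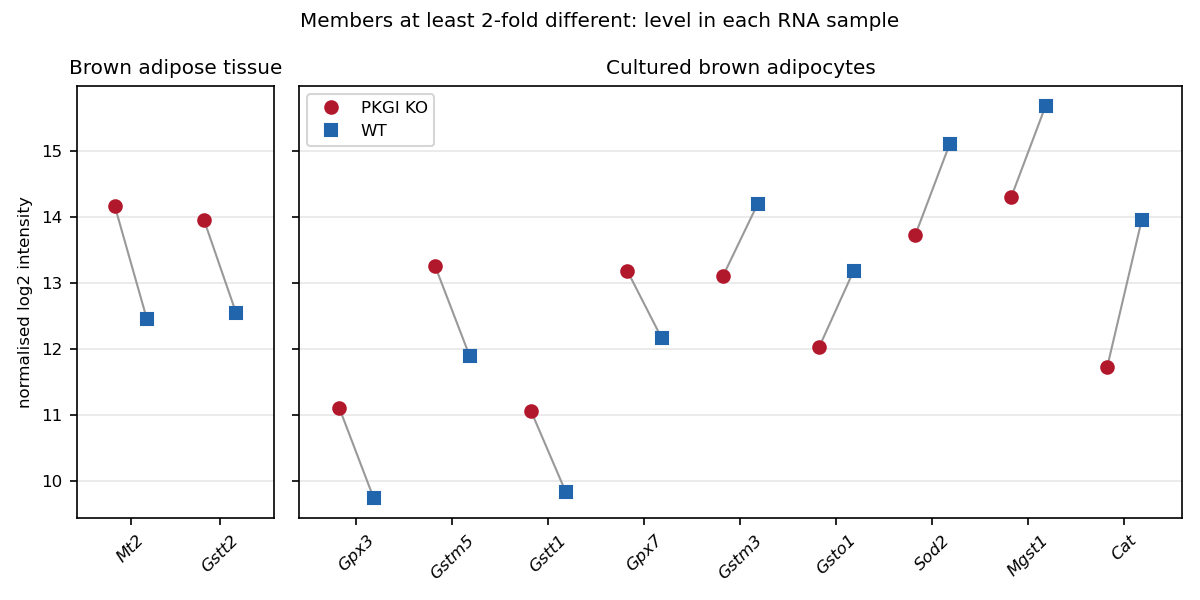
Normalised log2 intensity (vertical axis) of each member at least 2-fold different, with KO (red circles) left of WT (blue squares), in brown adipose tissue and in cultured brown adipocytes. Each point is 1 RNA sample, and only the pair within a gene is comparable. In BAT both KO levels lie above WT, and in the adipocytes 4 do and 5 lie below.

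Repeated spots show how tightly some smaller ratios were measured within an array with the loess values, but not how far the processing moved them. The Gsta4 probe gave log2 ratios between -0.67 and -0.40 over 10 spots in BAT and between 0.34 and 0.63 over 10 spots in the adipocytes. The repeated Mt1 probe ranged from 0.49 to 0.61 over 10 spots in BAT and from 0.28 to 0.44 over 8 spots in the adipocytes. For both genes the spots stayed on 1 side of 0 in each array. The Gsta4 ratio was -0.10 in BAT with outlier spots kept, and 0.97 in the adipocytes with the scanner software's ratios. Keeping outlier spots also gave BAT ratios of -0.07 for Gsta3, -0.14 for Srxn1 and 0.06 for Gpx2.

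The repeated Prdx2 probe ranged from -0.29 to -0.04 over 9 spots in BAT and from 0.09 to 0.36 over 10 spots in the adipocytes. The repeated Sod1 probe ranged from -0.28 to -0.01 over 9 spots in BAT and from -0.93 to -0.58 over 10 spots in the adipocytes. These spots share their RNA, so their spread says nothing of the spread between mice or cultures.

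**Figure D3:**
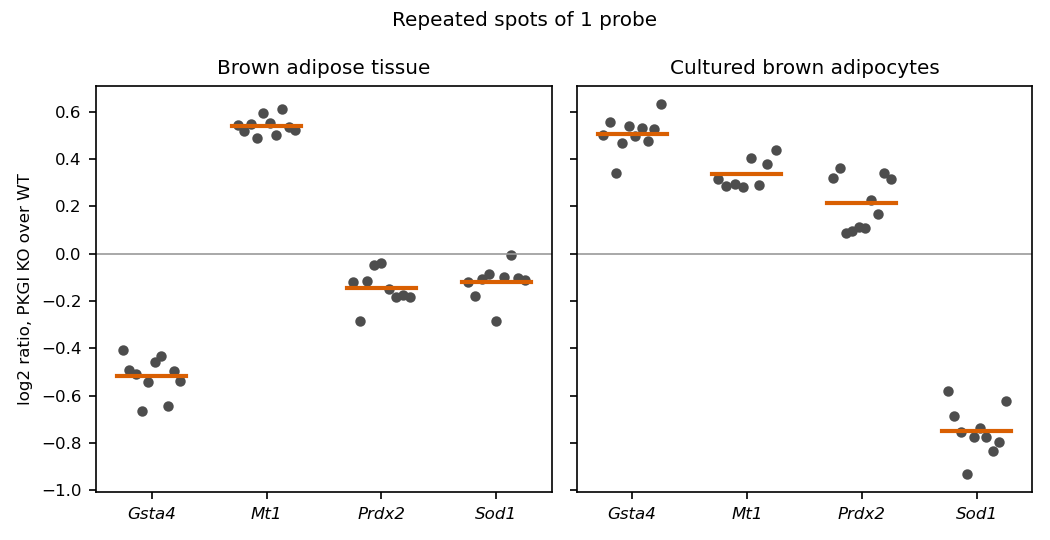
Log2 ratio of KO over WT (vertical axis) for the 4 member probes spotted repeatedly. Brown adipose tissue is on the left and cultured brown adipocytes on the right. Points are spots without an outlier flag, and bars their mean. The probes of Gsta4 and Prdx2 lie below 0 in BAT and above 0 in the adipocytes. That of Mt1 lies above 0 in both, and that of Sod1 below 0 in both. The brightest Sod1 probe, which is not drawn, had 0.48 in BAT.

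The tissue and culture values of the members were set side by side. Of the 49 genes measured in both, 14 were above 0 in both, 9 below 0 in both, 14 above 0 in BAT only and 12 above 0 in the adipocytes only. The sign was shared by 46.9% of members and by 49.6% of 18134 genes. Across these 49 genes Pearson's r was -0.06 and Spearman's rho -0.04, which is a description, since genes are not independent replicates. With the loess values no member was past 2-fold in both comparisons. Gstt1 was with the scanner software's ratios and with the deposited values, and Cat and Txnip were, in opposite directions, with median centring. The dyes also ran in opposite ways on the 2 arrays.

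**Figure D4:**
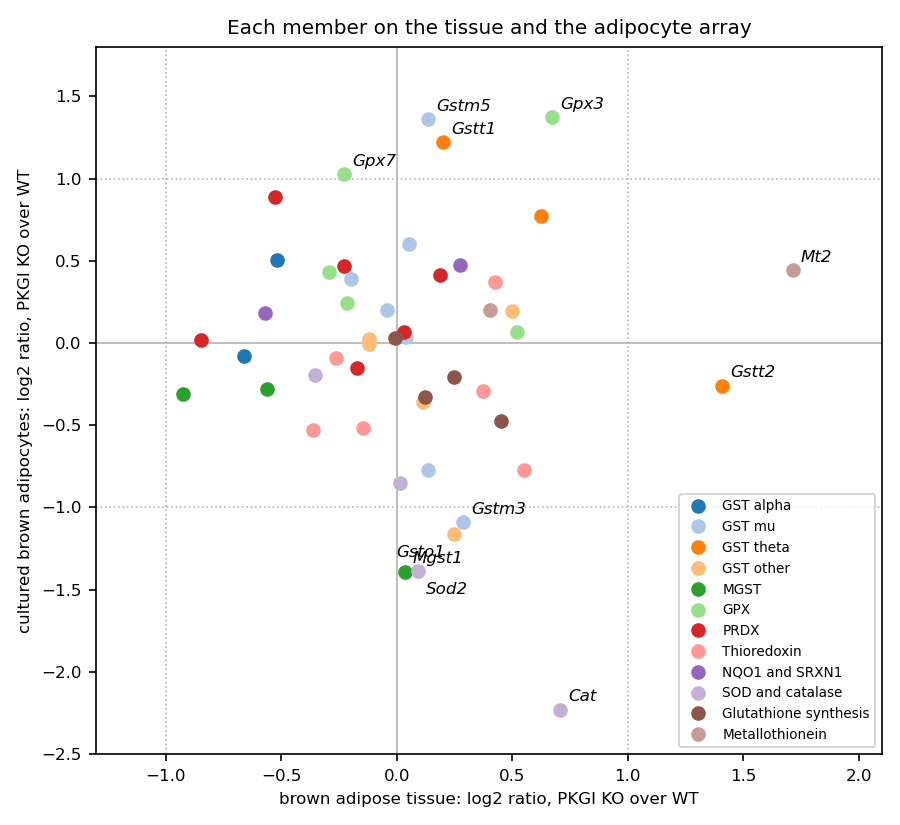
Log2 ratio of KO over WT of each of the 49 members measured on both arrays, in brown adipose tissue (horizontal axis) and cultured brown adipocytes (vertical axis), coloured by role, with dotted lines at 2-fold. Genes past 2-fold on either array are named. The points form no line, and Cat lies far below 0 in the adipocytes and above 0 in BAT.

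Genes that feed or surround these enzymes were described from 6 lists. The 2-fold counts of each list stand beside those of all genes. Of all genes, 0.967% were higher and 2.47% lower in BAT, and 2.15% were higher and 3.81% lower in the adipocytes. Of 19 measured NRF2 regulators and targets outside the members, 0 reached 2-fold in BAT (median -0.02). In the adipocytes 1 was higher and 3 were lower (median -0.14). Maff, a small partner of NRF2, was 2.13-fold higher in KO, with a level of 10.96 in KO and 9.87 in WT. The 2 ferritin chains, which store iron, were lower, Fth1 2.30-fold and Ftl1 2.02-fold, as was the aldehyde oxidase Aox1 (2.57-fold). Ftl1 did not reach 2-fold with offset 0, the scanner software's ratios or the deposited values. Members and these targets therefore did not share 1 direction in the culture.

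Of the genes of cystine supply, glutathione turnover and NADPH supply, 14 were measured in BAT, with 1 higher and 1 lower (median -0.24). Chac1, which degrades glutathione, had a level of 11.54 in KO and 10.19 in WT BAT and was 2.56-fold higher in KO, and Me3, a mitochondrial malic enzyme, was 2.06-fold lower. In the adipocytes 0 of 15 were higher and 3 were lower (median -0.24): Taldo1 (2.56-fold), the dipeptidase Dpep1 (2.02-fold) and the NADPH-producing Idh1 (2.01-fold). All 4 measured genes of the pentose phosphate pathway, the main cytosolic source of NADPH, were below 0 in the adipocytes, between -1.36 and -0.77, and in BAT, between -0.88 and -0.16. With the loess values only Taldo1 in the adipocytes reached 2-fold among them, against 3 with the brightest probe and 4 with median centring. In BAT 2 of the 4 turned positive with median centring and 1 when only the brightest probe was used.

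Of 14 measured genes that produce superoxide or peroxide, 0 were higher (beside 2.15% of all genes) and 5 were lower (beside 3.81%) in the cultured KO cells (median -0.76), while in BAT 0 reached 2-fold (median 0.13). Cybb, the catalytic subunit of the phagocyte NADPH oxidase, had a level of 8.96 in KO and 11.38 in WT adipocytes and was 5.37-fold lower in KO, beside the macrophage markers of which 9 of 9 were at least 1.5-fold lower. Ncf4 was 2.53-fold and Ncf1 2.09-fold lower, both encoding cytosolic subunits of that oxidase, and Xdh, xanthine dehydrogenase, was 2.04-fold lower. Xdh was under 2-fold in the deposited table, where 4 of the 14 genes were lower and 1 was higher.

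Of 12 measured genes of selenoproteins and their synthesis, 0 were higher and 1 was lower in BAT (median 0.05), and 1 was higher and 1 was lower in the adipocytes (median 0.13). Dio2, the selenoenzyme that activates thyroid hormone in brown fat, was 2.09-fold lower in KO BAT, beside 4 of 8 brown adipocyte markers lower, a list that includes it, and 1 higher. Sepp1, the selenium carrier, had a level of 15.00 in KO and 16.77 in WT adipocytes and was 3.40-fold lower in KO, and Selm was 2.74-fold higher. Of 18 other thiol oxidoreductases and repair enzymes, 1 was lower in BAT, the methionine sulfoxide reductase Msrb2 (2.01-fold), and 0 reached 2-fold in the adipocytes, with medians of 0.03 and 0.05.

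**Figure D5:**
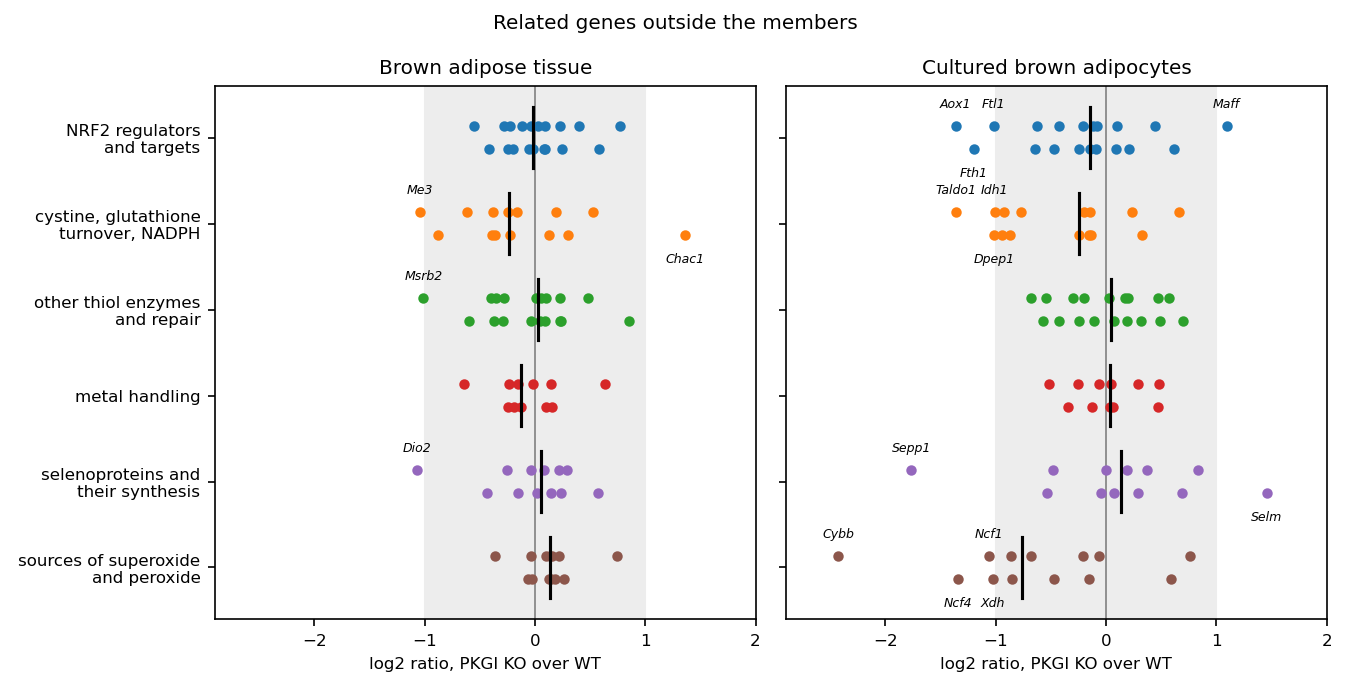
Log2 ratio of KO over WT (horizontal axis) of the genes of 6 lists related to the members, in brown adipose tissue (left) and cultured brown adipocytes (right). Points are genes, black bars list medians, the grey band covers differences under 2-fold, and names mark genes outside it. Sources of superoxide and peroxide have a median of -0.76 in the adipocytes, the lowest of the 12 medians shown.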

How the data were processed

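The authors scanned each array with Agilent Feature Extraction 9.5.1.1 (protocol GE2-v5_95_Feb07), per the file headers, and deposited intensity values per spot and dye, mean signal beside median local background, together with the log10 ratio of Cy5 over Cy3. A deposited value table holds the same log10 ratio turned to KO over WT (log2 differences up to 0.0165) and was empty for 7623 BAT and 6968 adipocyte gene spots, all with a ratio of 0. Scale, centring and direction are known from that comparison. No probe coordinates are used.

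Outlier-flagged spots (1215 and 203 gene spots, of which 4 and 2 were of members) were left out. With limma 3.58.1 (R 4.3.3), background was corrected by normexp (saddle, offset 50) and ratios by loess within each array, with weight 0 for the 1639 controls. Channel levels were taken after Aquantile scaling. Spots were averaged per probe, probes that were well above background in neither channel were dropped, and a gene was the mean over the remaining probes. Where WT was not well above background, the bound sets KO against the larger of 2 WT signals, the probe's own and the dimmest that was well above background. The steps were tested on simulated data without a dye bias and on brighter spots only, which cannot decide between loess and median centring.

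With 1 array per comparison no test was made, so genes were counted at 2-fold. Members and lists were chosen with earlier results of these data known. Named are members past 2-fold on either array, the highest and lowest of each role group on each array, 20 fixed names, and list genes past 2-fold, of which 1 is not reported or drawn here. The other mu transferases, Prdx2, Mtf1, Slc30a1 and the pentose phosphate group were named after their values were seen. The markers of hepatocytes, erythroid and endothelial cells gave 0 genes past 2-fold on either array. However, only 1 hepatocyte marker was measured in BAT and 0 in the adipocytes, where 3 of 7 erythroid markers were measured. Alternatives were offset 0, Feature Extraction's ratios, the deposited table, median centring, both channels above background, no brightness filter, the brightest probe, outlier spots kept, and a 1.5-fold threshold. Sequences came from RefSeq (GRCm38.p6), which has an entry for 47 members.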

Additional observations from a re-analysis of the deposited data

Results flagged for a closer look

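Cat was at least 1.5-fold different in opposite directions on the 2 arrays. Its log2 ratio of KO over WT was 0.71 in BAT and -2.23 in the cultured adipocytes. The difference between the comparisons was not tested, since each rests on 1 array and 1 Cat probe with 1 spot, and the dyes ran in opposite ways. Across the other settings the ratio lay between 0.62 and 1.45 in BAT and between -2.63 and -2.15 in the adipocytes. In the adipocytes, 13 of 13 mature adipocyte markers were below WT by at least 2-fold, and the part of that shift in the value of Cat was not tested.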

How the results depend on the processing

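No paired analysis was possible because each comparison rests on 1 array. Median centring moved the median of all genes to 0.21 in BAT and -0.23 in the adipocytes, and the share of 2-fold genes that were higher to 60.9% in BAT (28.1% with loess) and 12.5% in the adipocytes (36.1% with loess). Feature Extraction's ratios gave 63.1% in BAT and 45.4% in the adipocytes. The 2-fold genes of BAT numbered 2356 higher and 1375 lower with those ratios, 2351 and 1373 in the deposited table, 943 and 605 with median centring, 699 and 1211 with offset 0, and 47 and 112 with outlier spots kept, against 199 and 508. Those of the adipocytes numbered 1030 and 1241, 1027 and 1239, 212 and 1485, and 709 and 1041 under the first 4 of these settings, against 419 and 742. No member past 2-fold changed sign under any setting.

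With median centring 7 of 50 members were higher in BAT (Cat, Gpx3, Gstt3, Txn1 and Txnip joined), beside 943 of 20571 genes. The median of the 50 was 0.48. In the adipocytes 0 of 49 members were higher, beside 212 of 19478 genes. There 8 were lower (Gstm1, Sod1 and Txnip joined), beside 1485 genes, and the median of the 49 was -0.23. Relative to the shift of all genes these medians are less far from 0. At 1.5-fold, 5 were higher and 3 lower in BAT, and 7 higher and 8 lower in the adipocytes. With the brightest probe, Sod1 joined the genes 2-fold lower in the adipocytes. With Feature Extraction's ratios and with the deposited values, Mgst3 was the 1 member lower in BAT and Gstt1 joined the higher ones. With the former, 3 of 50 members were higher, a smaller share than the 2356 of 20571 genes. The 1 lower member stands beside 1375 genes. Which difference between the settings causes this was not tested.

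For the related lists, median centring gave in BAT 3 higher NRF2 genes (median 0.55), 0 lower genes of cystine, glutathione turnover and NADPH (median 0.27), 1 higher and 0 lower other thiol genes (median 0.38), 1 higher gene of metal handling (median 0.27), 2 higher and 0 lower selenoprotein genes (median 0.46), and 1 higher source of superoxide and peroxide (median 0.39). In the adipocytes it gave 0 higher NRF2 genes (median -0.55), 7 lower genes of cystine and NADPH (median -0.65), 1 lower thiol gene (median -0.33), medians of -0.36 for metal handling and -0.24 for selenoproteins, and 8 lower oxidant sources (median -1.16). Feature Extraction's ratios, like the deposited values, gave in BAT 2 higher genes of cystine and NADPH, 0 lower thiol genes, a metal handling median of -0.0247, 1 higher selenoprotein gene and an oxidant source median of 0.23, and in the adipocytes 2 higher selenoprotein genes and 1 higher oxidant source, as did offset 0 in the adipocytes. Keeping outlier spots gave in BAT 0 higher and 0 lower genes of cystine and NADPH (median -0.0791), 0 lower thiol genes, 0 lower selenoprotein genes, and medians of -0.0102 for metal handling and 0.0196 for oxidant sources. With no brightness filter 0 genes of cystine and NADPH were lower in BAT. The brightest probe gave in BAT 1 higher thiol gene and a selenoprotein median of -0.0624, and in the adipocytes 5 lower genes of cystine and NADPH (median -0.77) and a selenoprotein median of 0.24. The other settings moved no list count by over 1.5 times.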
